A study of Drosophila melanogaster with 18 samples.

Results

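His4r is the Drosophila melanogaster gene for a histone H4 that lies outside the repeated histone gene cluster. It is represented in the deposited table by 1 row of 16637, the FlyBase transcript FBtr0082962. The row was chosen by its log2 signals, with their values known, as one that lies higher in double than in single knockdowns of insulator proteins. All 18 of its values entered that choice, so its levels and differences are given here as a description, with no test.

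Histone H4 pairs with histone H3 at the core of the nucleosome, the unit around which DNA is wrapped. Most H4 messages of dividing fly cells come from the cluster genes, are made during DNA replication and carry no poly(A) tail. His4r instead is expressed independently of replication, its message is polyadenylated, and it encodes the same protein as the cluster genes. Insulator proteins partition chromatin: BEAF, CTCF and SuHw bind DNA, and CP190 is a cofactor that is found with them.

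The cells were Kc, an established Drosophila line of embryonic origin. They received double-stranded RNA on each of 3 days and were collected on day 4. The 9 groups held 2 arrays each, which the series design calls independent biological experiments. The control received double-stranded RNA against beta-galactosidase, a sequence foreign to the fly. Single knockdowns targeted BEAF, CP190, CTCF or SuHw, and double knockdowns targeted BEAF and CP190, BEAF and CTCF, CTCF and CP190, or SuHw and CP190. All groups thus carried a treatment with double-stranded RNA, and none was untreated. How far each protein was depleted was not analysed here. Of 20 marker genes for hemocyte-like Kc cells and for other cell types, 0 could be matched to a row, so the identity of the cells was not checked.

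The arrays divided into 2 sets. The first set held the 6 control, BEAF and CP190 arrays and the second set the 12 others, and the labels write the name of the cell line differently in each. Arrays of different sets correlated across rows at 0.978 to 0.990, arrays of different groups in 1 set at 0.989 to 0.998, and replicates at 0.998 to 0.999. The second set has no control group and the first has no double knockdown. Any comparison across sets therefore holds the set and the knockdown together, and they cannot be told apart. Array medians ran from 9.27 to 9.33 on the log2 scale, and no pair of arrays was identical.

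In RefSeq (Release 6 assembly) His4r lies on chromosome arm 3R between put, the gene of a type II activin receptor, and CG7886. RefSeq lists 4 transcripts for it, and the probes behind the array row were not analysed here. The same table lists 22 H4 genes of the cluster, and none of the 111 cluster histone genes could be matched to a row. Whether messages of the cluster H4 genes add to the His4r signal therefore was not tested. Of the 29 other histone and chromatin genes listed for comparison, besides the cluster families, 3 were matched: kis, HDAC3 and SuUR.

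Signals of His4r were high in every group and fell into 3 tiers. Values are log2 RMA signals, in which a difference of 1 is a doubling. The control arrays had 13.10 and 13.25. BEAF knockdown arrays had 13.04 on both, and CP190 knockdown arrays had 12.99 and 12.97. All 4 of these single knockdown arrays lay below both control arrays, by 0.056 at the nearest point, as they did in 25.5% of all rows.

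Among the singles of the second set, CTCF knockdown arrays had 13.35 and 13.43. SuHw knockdown arrays had 13.34 and 13.57, the widest gap between replicates of any group (0.23). These 4 arrays overlapped with each other and lay above all 6 arrays of the first set, by at least 0.085, as they did in 19.5% of all rows.

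The double knockdowns formed the top tier. Arrays with BEAF and CP190 targeted had 13.80 and 13.92, and those with BEAF and CTCF targeted 13.81 and 13.78. CTCF with CP190 gave 13.76 and 13.77, and SuHw with CP190 gave 13.68 and 13.75. Every double array exceeded every single and control array. The lowest double array stood 0.11 above the highest single array, SuHw replicate 2, and 0.25 above the next highest single array.

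**Figure D1:**
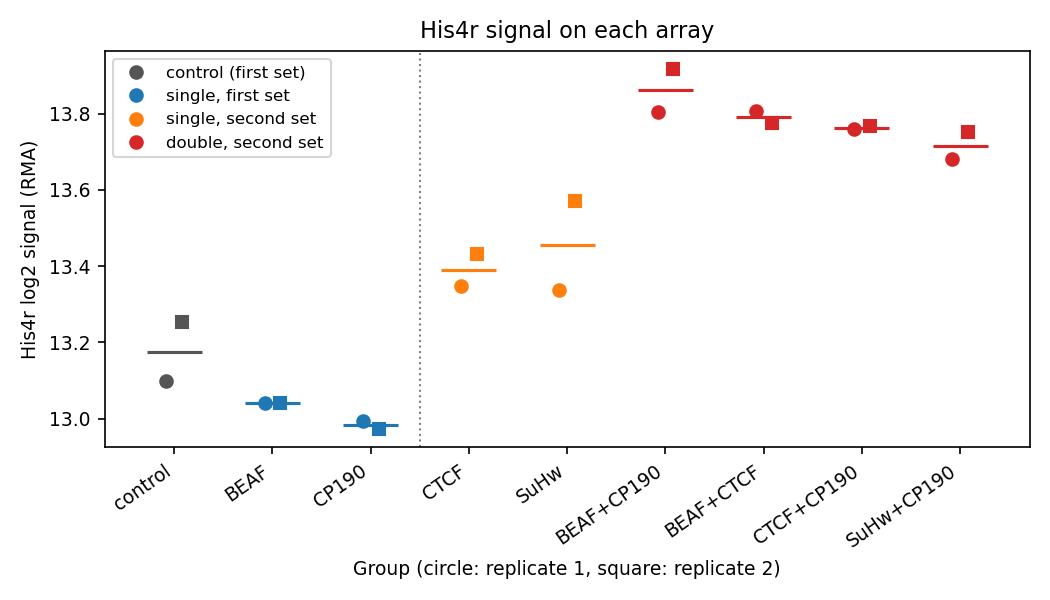
Log2 RMA signal of His4r on each of the 18 arrays, by group, with circles for replicate 1, squares for replicate 2, a bar for the group mean and a dotted line between the sets. The 8 double arrays lie between 13.68 and 13.92, above the 4 single arrays of the second set (13.34 to 13.57), which lie above the 6 arrays of the first set (12.97 to 13.25). The vertical axis does not start at 0.

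From lowest to highest, the group means were 12.98 ± 0.015 for CP190, 13.04 ± 0.00071 for BEAF, 13.18 ± 0.11 for control, 13.39 ± 0.059 for CTCF and 13.45 ± 0.17 for SuHw (SD, n = 2 each). They continued with 13.72 ± 0.050 for SuHw+CP190, 13.76 ± 0.0046 for CTCF+CP190, 13.79 ± 0.022 for BEAF+CTCF and 13.86 ± 0.080 for BEAF+CP190. The pooled SD between replicates was 0.076. Neighbours in this order that differed by less than that SD were BEAF and CP190 (0.058), CTCF and SuHw (0.066, and -0.051 without SuHw replicate 2), and each step between doubles, the topmost being 0.069. The steps from BEAF to control (0.13), from control to CTCF (0.21) and from SuHw to SuHw+CP190 (0.26) exceeded it, and the step from control to CTCF crosses the sets.

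His4r was measured less evenly than most rows of its brightness. Its pooled SD exceeded that of 85.9% of the 1467 rows whose control mean lay within 0.5 of its own, where the median was 0.053. In control arrays 93.1% of all rows had a lower mean signal than His4r. Its place among the rows of an array rose from 91.1% of rows below it on CP190 replicate 2 to 97.6% on BEAF+CP190 replicate 2. These places describe the range of the array, not amounts of RNA relative to other genes.

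The contrast of single with double knockdowns that stays within 1 set compares the 8 double arrays with the 4 CTCF and SuHw arrays. Every double includes a knockdown of BEAF or CP190, and neither of these singles does. The number of targets and those knockdowns therefore cannot be told apart here. Doubles averaged 13.78 and these singles 13.42, a difference of 0.36 (SE 0.047 from the fit over all rows and arrays), or 1.28-fold in signal. Without SuHw replicate 1 the difference was 0.30, and without SuHw replicate 2 it was 0.42, the extremes over the 12 arrays left out in turn. Across all rows 8.84% had their 8 double arrays above these 4 single arrays without overlap, as His4r did, and 8.31% had them below. By limma with Benjamini-Hochberg, 45.4% of rows were called for this contrast in either direction.

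Over both sets, with BEAF and CP190 singles included, the difference was 0.57 (SE 0.039), or 1.48-fold. The 2.9% of rows with all 8 double arrays above all 8 single arrays include His4r, and 1.86% of rows had the reverse order. In 1.11% of rows the gap between them was at least as wide as in His4r. Since 4 of the 8 single arrays belong to the first set, this larger difference holds the set as well as the number of targets.

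Against rows of like control signal, His4r lay near the upper end. Of the 1467 rows within 0.5 of its control mean, 24 had a larger difference between doubles and singles of the second set, which put His4r at rank 25 and above 98.4% of them. Their median difference was -0.0048 and the middle 90% of them lay between -0.23 and 0.24. Among all 16636 other rows 1199 had a larger difference, and 92.8% had a smaller one. The median pooled SD between replicates was 0.088 over all rows, against 0.053 over the like rows.

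Of the like rows, 144 (9.82%) had doubles above the singles of the second set without overlap and 33 (2.25%) had them above all 8 singles. Ranked by the difference over both sets, which holds the set as well, 3 of the like rows and 3.43% of all rows exceeded His4r. The full order of tiers seen in His4r, with doubles above the singles of the second set and those above all 6 arrays of the first, was found in 126 rows of the table (0.757%), and in 12 of the like rows. The inverted order was found in 71 rows (0.427%).

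**Figure D2:**
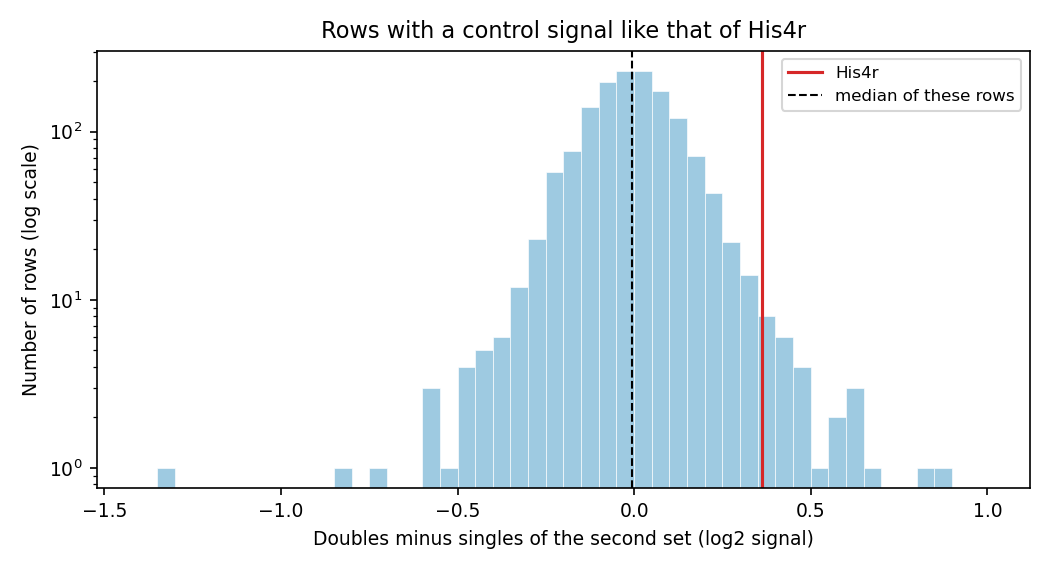
Difference between double knockdowns and the singles of the second set (log2 signal) in the 1467 rows whose control mean is within 0.5 of that of His4r, as a histogram with a logarithmic count axis. The red line marks His4r at 0.36 and the dashed line the median of the rows at -0.0048, and 24 rows lie to the right of His4r.

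Each double of the second set that could be paired with a single of the same set lay above it. BEAF+CTCF exceeded CTCF by 0.40 (SE 0.077), or 1.32-fold. CTCF+CP190 exceeded the same CTCF arrays by 0.37 (SE 0.077), or 1.30-fold. Both comparisons share the CTCF arrays, and the lowest of the 4 double arrays (13.76) lay 0.33 above the higher CTCF array. Rows with such an absence of overlap made up 35% of the table for BEAF+CTCF above CTCF and 31.7% for CTCF+CP190 above CTCF, so with 2 arrays against 2 the lack of overlap itself sets His4r little apart. By size, 13 of the 1467 like rows exceeded His4r in the former comparison and 30 in the latter.

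SuHw+CP190 exceeded SuHw by 0.26 (SE 0.077), or 1.20-fold, and 96 of the like rows exceeded His4r there. This difference depended on the SuHw arrays, at 0.14 without SuHw replicate 1 and 0.38 without SuHw replicate 2. Of all rows, 30% had both SuHw+CP190 arrays above both SuHw arrays.

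The doubles differed less among themselves than from the singles of their set. Their group means had an SD of 0.061. These are means of 2 arrays, so that SD cannot be set directly against the pooled SD of single arrays (0.076). BEAF+CP190 exceeded SuHw+CP190, the other end of the doubles, by 0.15 (SE 0.077) without overlap, as did 29.6% of rows. By size, 50 of the 1467 like rows exceeded His4r there. In His4r this difference was 0.089 without BEAF+CP190 replicate 2 and 0.20 without BEAF+CP190 replicate 1. Both doubles with CTCF averaged 13.78 and both without it 13.79. The 4 double arrays with BEAF targeted averaged 13.83, and the 6 with CP190 targeted averaged 13.78.

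**Figure D3:**
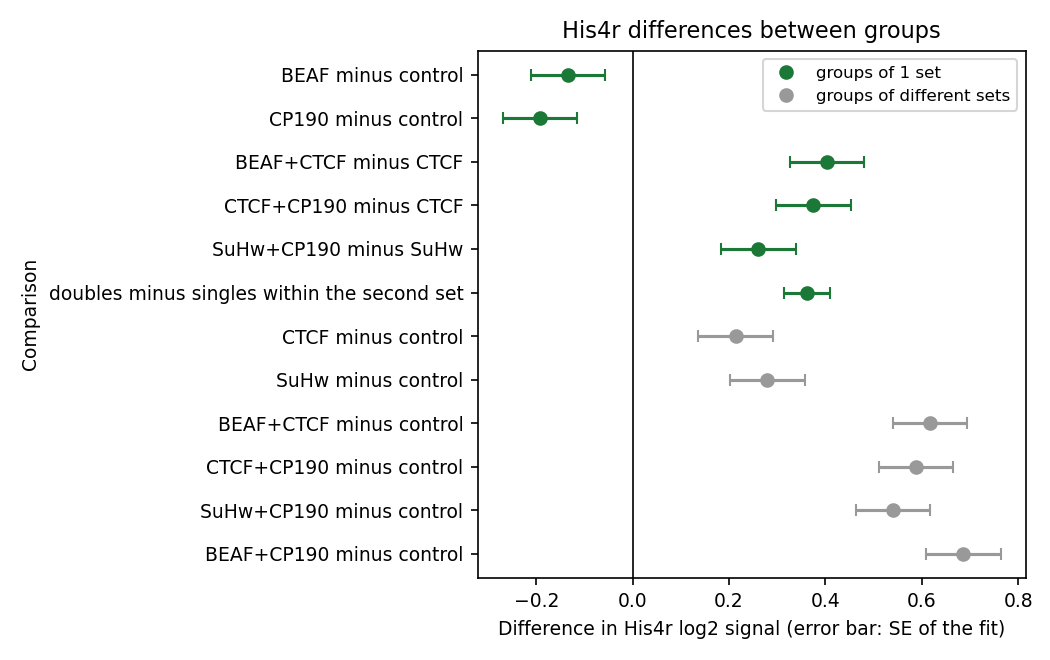
Differences in His4r log2 signal between groups with the standard error of the fit, in green where both groups belong to 1 set and in grey where they belong to different sets. BEAF and CP190 lie below control (-0.13 and -0.19). BEAF+CTCF, CTCF+CP190 and SuHw+CP190 lie above the single of their own set (0.26 to 0.40). Comparisons with control share its 2 arrays.

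Knockdown of BEAF or CP190 alone gave a lower His4r signal than control, by small amounts. The difference was -0.13 (SE 0.077) for BEAF and -0.19 (SE 0.077) for CP190, and the same 2 control arrays serve both. Without control replicate 1 these were -0.21 and -0.27, and without control replicate 2 they were -0.057 and -0.11. Both control arrays lay above both BEAF arrays in 33.4% of rows and above both CP190 arrays in 34.7%. Among the 1467 like rows, 409 (27.9%) had a lower difference than His4r for BEAF and 245 (16.7%) for CP190. CP190 fell short of BEAF by 0.058, less than the SE of 0.077.

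The other comparisons with control cross the sets. CTCF lay 0.21 above control and SuHw 0.28 above it (SE 0.077 each). Without SuHw replicate 2 the latter was 0.16 and without control replicate 1 it was 0.20. The corresponding CTCF value was 0.14 without control replicate 1. The doubles lay above control by 0.54 for SuHw+CP190, 0.59 for CTCF+CP190, 0.62 for BEAF+CTCF and 0.69 for BEAF+CP190 (SE 0.077 each), or 1.45-fold to 1.61-fold. Doubles above all 10 other arrays without overlap were found in 2.36% of rows.

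BEAF+CP190 has neither of its singles in its own set. It lay 0.82 above BEAF and 0.88 above CP190 (SE 0.077 each), the widest gaps between a double and a single that it contains. Measured across the sets in the same way, BEAF+CTCF lay 0.75 above BEAF, CTCF+CP190 lay 0.78 above CP190 and SuHw+CP190 lay 0.73 above CP190.

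The interaction asks whether a double knockdown equals what its singles add up to: the differences of both singles from control are added to the control level, and the sum is set against the measured double. For BEAF+CTCF the singles added up to 13.25 and the double measured 13.79, an excess of 0.54 (SE 0.11). For CTCF+CP190 the sum was 13.20 and the double 13.76, an excess of 0.57 (SE 0.11). For SuHw+CP190 the sum was 13.26 and the double 13.72, an excess of 0.45 (SE 0.11), which was 0.34 without SuHw replicate 1. A shift common to every array of a set drops out of these values. They still weigh the addition of BEAF or CP190 knockdown in the second set against that knockdown alone in the first. In BEAF+CP190 the excess of 1.01 (SE 0.11) holds the whole difference between sets. Of the 1467 like rows, 48, 49 and 79 had a larger excess than His4r in BEAF+CTCF, CTCF+CP190 and SuHw+CP190. Over all rows, 9.39%, 9.39% and 13.2% had a larger excess.

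Knockdown of BEAF or CP190 thus accompanied a lower His4r signal when alone in the first set and a higher one when added in the second. Both BEAF arrays and both CP190 arrays lay below both control arrays. Both arrays of BEAF+CTCF and of CTCF+CP190 lay above both CTCF arrays, and both SuHw+CP190 arrays lay above both SuHw arrays. This whole combination was found in 679 rows (4.08%), and its mirror image in 457 (2.75%).

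Rows whose pattern over the 9 group means was most like that of His4r had lower signals than it. FBtr0078550 correlated with it at 0.988 (Pearson, 9 group means), with 6.87 in control, 6.58 in CP190 and 7.51 to 7.66 in the doubles. FBtr0084548 correlated at 0.987, with 6.63 in control, 6.28 in CP190 and 7.24 to 7.32 in the doubles. On both rows the arrays fell into the same 3 tiers without overlap.

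The most opposed rows were FBtr0070414, at -0.996, and FBtr0070961, at -0.985. FBtr0070414 went from 10.87 in control and 10.99 in CP190 to between 10.43 and 10.49 in the doubles. FBtr0070961 went from 11.60 and 11.72 to between 11.32 and 11.40. Correlations above 0.9 were found for 521 rows (3.13%) and below -0.9 for 298 (1.79%). All these means come from the same 18 arrays and share their normalization and their division into sets, so the correlations are descriptions. Over the 6 groups of the second set alone, 936 rows exceeded 0.9 and 741 lay below -0.9. Rows above 0.9 over both the 9 and the 6 groups numbered 161. Ranked by correlation over the 6 groups, FBtr0078550 stood at 298 and FBtr0084548 at 193. The 4 identifiers were not paired with gene names here.

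**Figure D4:**
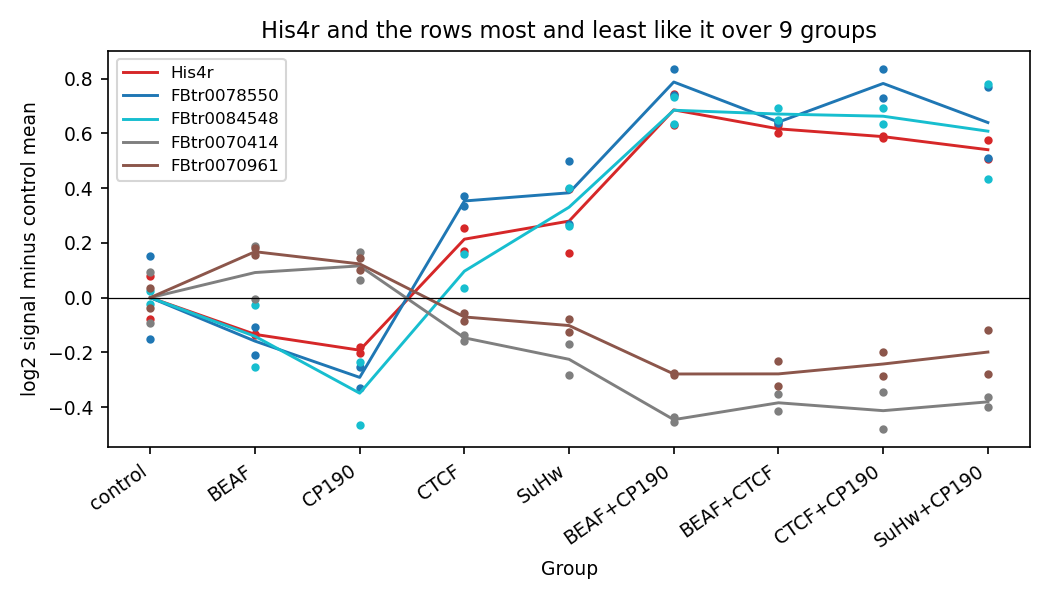
Log2 signal minus the control mean for His4r and for the 2 rows most like it and the 2 most opposed to it over the 9 group means, with lines for group means and points for arrays. His4r, FBtr0078550 and FBtr0084548 lie below 0 in BEAF and CP190 and above 0 in the other groups, where FBtr0070414 and FBtr0070961 lie on the other side.

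Of the 15 other rows with a gene symbol, 0 had all 8 double arrays above the 4 singles of the second set and 2, NaPi-III and sle, had them below, beside 8.84% and 8.31% of all rows. By limma with Benjamini-Hochberg, 2 of the 15 rose in doubles against these singles, 4 fell and 9 did not pass, beside 45.4% of all rows called. Among the chromatin genes, SuUR, which acts in the replication of heterochromatin, fell by 0.12 (SE 0.043, limma adjusted p = 0.042). It lost that call in 9 of 15 alternatives, each of which left out 1 array, with an adjusted p of up to 0.22. The chromatin remodeller gene kis (-0.072, limma adjusted p = 0.13) and the deacetylase gene HDAC3 (0.0069, limma adjusted p = 0.90) did not pass. The GATOR2 gene mio, not called at -0.082 (limma adjusted p = 0.089), passed without SuHw replicate 2 at -0.11 (limma adjusted p = 0.037). Over the 9 group means SuUR correlated with His4r at -0.907, kis at 0.692 and HDAC3 at -0.035. Over the 6 groups of the second set alone these were -0.935, -0.409 and 0.025, so the sign for kis turned.

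Outside chromatin, fend rose by 0.43 (SE 0.045, limma adjusted p = 6.2e-06) and the fatty acid transporter gene Fatp1 by 0.22 (SE 0.042). NaPi-III, which encodes a phosphate transporter, fell by 0.34 (SE 0.033, limma adjusted p = 3.9e-06), rdx of the Hedgehog pathway fell by 0.24 and sle fell by 0.13. Without SuHw replicate 2 the rdx call was lost, at -0.15 (limma adjusted p = 0.066). Correlations of the group means of the 15 with those of His4r ran from -0.907, for SuUR, to 0.747, for CG31178. Over the 6 groups of the second set CG31178 stood at -0.0014.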

How the data were processed

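Total RNA of 18 Kc cell samples was labelled with Cy3 and hybridised to 1-colour NimbleGen arrays, per the labels' protocols. The authors deposited 1 table of log2 signals per FlyBase transcript, used as given. The submitters' processing notes name RMA and Partek without versions. Not given in the sources used here are the genome build and whether all arrays went through RMA at once. Detection calls are absent from the table, so no row was called above background. Depth in the sense of counts does not apply to hybridisation signals, and 2 arrays per group limit the precision. RMA equalises arrays that are processed together, so differences between such arrays are relative to the bulk of rows.

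Groups and replicate numbers came from sample titles. Group means were fitted to all rows and arrays with limma 3.58.1 in R 4.3.3 (9 residual and 3.68 prior degrees of freedom). The code was run on simulated rows with independent noise and no difference between sets, which checks the code and not the results. Rows were called at a Benjamini-Hochberg adjusted p under 0.05. For His4r only differences and standard errors were taken. Like rows had a control mean within 0.5. The named rows were the 2 most and 2 least correlated with His4r over group means, and rows with exactly 1 symbol among the synonyms of RefSeq (17872 genes): 16 rows matched 1 symbol, 28 several and 16593 none. The row, the gene lists and the tests were chosen with earlier results of these data known. The labels do not say that a replicate number marks a shared day, and deviations of same-numbered arrays correlated at -0.20 to 0.45 between groups, so numbers were not treated as pairs. Alternatives were quantile normalization, median centring, other choices of like rows, the replicate number as a block and leaving out single arrays.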

Additional observations from a re-analysis of the deposited data

Results flagged for a closer look

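For His4r, 3 comparisons were flagged for opposite directions. Both arrays of a knockdown moved one way in the first set, and both arrays of a double moved the other way in the second. The whole combination was found in 4.08% of rows. These differences were not tested, since the row was chosen for its pattern. CP190 knockdown lay below control alone and above the single when added to CTCF, a difference between the effects of 0.57 (SE 0.11). When CP190 knockdown was added to SuHw the difference between the effects was 0.45 (SE 0.11). For BEAF knockdown, alone and added to CTCF, it was 0.54 (SE 0.11). In the order given, 9.39%, 13.2% and 9.39% of all rows had a larger difference between the effects. All of the comparisons use the same 2 control arrays. Those with CTCF also share the CTCF arrays, and those with CP190 share the CP190 arrays. The set and the presence of a companion knockdown cannot be told apart.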

How the results depend on the processing

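Of 240 alternative values for the 28 His4r differences, 208 moved by less than the pooled SD between replicates and 32 by more, and each of the 32 left out a control or a SuHw array. The sign changed in 1, SuHw minus CTCF, which went from 0.066 to -0.051 without SuHw replicate 2 and to 0.18 without SuHw replicate 1. The ranges with 1 array left out were 0.30 to 0.42 for doubles minus singles of the second set, 0.54 to 0.60 over both sets, 0.36 to 0.45 for BEAF+CTCF minus CTCF, 0.33 to 0.42 for CTCF+CP190 minus CTCF and 0.14 to 0.38 for SuHw+CP190 minus SuHw. Against control they were -0.21 to -0.057 for BEAF, -0.27 to -0.11 for CP190, 0.14 to 0.29 for CTCF, 0.16 to 0.40 for SuHw, 0.61 to 0.76 for BEAF+CP190, 0.54 to 0.69 for BEAF+CTCF, 0.51 to 0.67 for CTCF+CP190 and 0.46 to 0.62 for SuHw+CP190. Interactions ran from 0.46 to 0.62 for BEAF+CTCF, 0.49 to 0.64 for CTCF+CP190, 0.34 to 0.57 for SuHw+CP190 and 0.93 to 1.09 for BEAF+CP190.

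Doubles minus singles of the second set was 0.38 after quantile normalization, 0.37 after median centring or centring on like rows (the latter added after the data were seen), 0.35 with each double against its own single and 0.36 from linear means. With the replicate number as a block it stayed at 0.36 (SE 0.042), as the design is balanced, and 7549 rows were called in place of 7557. That count was 4562 among rows above the median signal, with fewer rows tested, 4810 without replicate 1 and 3855 without replicate 2, with fewer arrays. Among like rows His4r stayed above 97.5% to 98.8% under the other ways of choosing or ranking them.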
